A study of Mus musculus with 24 samples.

Results

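Severe and moderate hydronephrosis were compared in whole kidneys of male mgb-/- (megabladder) mice. The labels call the mice young adult, while the paper gives their age in days. The comparison was defined by the grade given to each sample, which put 6 kidneys in the severe and 5 in the moderate group, 11 of the 24 kidneys of the series. Grade had been set by renal ultrasound from how much parenchyma was left, with the least in severe kidneys. The other kidneys were 7 mildly affected mgb-/- kidneys and 6 from mgb+/+ control mice, also male and labelled young adult. All 18 affected kidneys were homozygous for the mgb allele, so that the severe and moderate groups shared the genotype and differed in grade. Which kidneys, if any, came from 1 mouse is not given, and p-values therefore measured the spread between kidneys. RNA of each kidney was hybridised to a 1-colour Agilent mouse gene expression array, and 27971 genes were tested.

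In the megabladder mouse the bladder wall lacks normal smooth muscle and empties poorly, so that urine backs up and the renal pelvis widens. The pelvis is lined by urothelium, a layered epithelium whose superficial cells carry plaques of uroplakin proteins and whose basal cells contain keratins of stratified epithelia. The parenchyma around it is mostly proximal tubule, which reabsorbs sodium, sugars and amino acids and burns fatty acids for energy.

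Signal is given throughout as log2 signal with the 75th percentile of its array at 0, so that 1 unit is a 2-fold step and a value belongs to 1 probe and is compared only between kidneys. The share of probes well above background was 55.1% to 70.7% over the 11 arrays, and no spot was saturated. The array of severe kidney 4 stood apart. It had 660 outlier spots, against 102 to 261 on the other 23 arrays, and its median correlation with the other 10 kidneys was 0.936 against 0.954 to 0.973 for those. Moderate kidney 1 had high adrenal cortex markers, with a summed signal of 243.2 over 7 adrenal marker genes against 0.577 to 1.28 in the severe kidneys. Mild kidneys, which also entered the fit, ranged from 0.727 to 255 in this sum. The arrays lay on 3 slides that each held both grades. Slide 1 held moderate kidneys 1 and 4 and severe kidney 2, slide 2 held moderate kidneys 2 and 5 and severe kidneys 3 and 5, and slide 3 held moderate kidney 3 and severe kidneys 1, 4 and 6.

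Between the grades 2 genes passed an adjusted p of 0.05 and a 2-fold difference in limma's moderated test with Benjamini-Hochberg adjustment, which is 0.00715% of the genes tested. Krt15 rose and Gpat3 fell in severe kidneys. At an unadjusted p under 0.05, 1742 genes were higher in severe kidneys, which is 6.23% of the genes tested, and 1156 were lower, which is 4.13%. In 116 genes, 0.415% of those tested, every severe kidney lay above every moderate kidney, and in 38 genes, 0.136%, every severe kidney lay below. Of the 27971 genes, 33 had every severe kidney above all 18 other kidneys of the series, and 12 had every severe kidney below them. The median difference over all genes was 0.01 on the log2 scale. For the median gene the 95% confidence interval reached 0.50 log2 units to either side of the estimate, which is 1.41-fold.

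Krt15, a type I keratin of basal cells in stratified epithelia, was the gene of lowest p. Its log2 signal in the moderate kidneys was -2.18, -1.80, -2.11, -1.30 and -3.31 for kidneys 1 to 5. In the 6 severe kidneys it was -0.02 at the lowest, 0.35 at the median and 2.03 at the highest. All severe kidneys therefore lay above all moderate kidneys, with severe kidney 2 farthest up. The difference was 2.68 (SE 0.40), a 6.42-fold higher level with a 95% confidence interval of 3.63- to 11.3-fold (limma adjusted p = 0.0233). The mean was -2.35 ± 0.33 (SD, n = 6) in control, -2.47 ± 0.76 (n = 7) in mild, -2.14 ± 0.74 (n = 5) in moderate and 0.54 ± 0.77 (n = 6) in severe kidneys, and all 18 other kidneys lay below the lowest severe kidney. Within slides 1, 2 and 3 the difference was 3.77, 2.81 and 2.35. With the slide as a block the adjusted p was 0.0928, and the call was also lost without moderate kidney 1, moderate kidney 5 or severe kidney 3, with adjusted p up to 0.109. The adjusted p of Krt15 was 0.0772 when arrays were scaled by their median, 0.252 in the 18 mgb-/- kidneys alone and 0.543 in the 11 severe and moderate kidneys alone.

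The 6 uroplakin genes, which encode the plaque proteins of superficial urothelial cells, were all higher in severe kidneys, with a median log2 difference of 1.82 against 0.01 over all genes. None passed the adjusted threshold (limma adjusted p 0.211 to 0.305), all 6 had an unadjusted p under 0.05, and in 4 of them the grades did not overlap. Over all genes 6.23% were higher at that p, and 0.415% did not overlap with severe kidneys above. All but Upk3b had been reported by the paper as higher in the same severe kidneys than in mild ones. Their high severe values are not independent of that report. In each of the 11 runs that left out 1 severe or moderate kidney all 6 stayed higher at an unadjusted p under 0.05, with a median between 1.47 and 2.01. Grade was set by the parenchyma left, and signal is relative to the other genes of an array. Whether more urothelial cells, more RNA per cell or less parenchyma lay behind a higher level cannot be told apart in whole kidneys.

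Upk2, the partner of uroplakin 1A in the plaque, had the lowest p of the family. Its log2 signal was 1.45, 2.03, 1.43, 2.05 and 0.44 in moderate kidneys 1 to 5. In severe kidneys it was 2.84 at the lowest, 3.34 at the median and 4.69 at the highest. The grades did not overlap, moderate kidney 5 was the lowest and severe kidney 2 the highest of the 11, and the difference was 2.02 (SE 0.54), 4.06-fold with an interval of 1.88- to 8.78-fold. Upk1a, a tetraspanin of the plaque, was at 4.44, 4.59, 4.15, 4.78 and 3.04 in the moderate kidneys. Its severe kidneys lay between 5.31 and 6.94 with a median of 5.80. Here too every severe kidney was above every moderate one, and the difference was 1.73 (SE 0.50). Upk1b, the other tetraspanin, was at 1.03, 0.99, 0.42, 1.47 and -0.64 in moderate kidneys and between 1.65 and 3.73, median 2.52, in severe kidneys. Upk3a, which pairs with uroplakin 1B, was at 3.02, 3.36, 3.11, 3.33 and 1.51 in moderate kidneys and between 4.10 and 5.87, median 4.57, in severe kidneys. The differences were 1.97 (SE 0.57) for Upk1b and 1.84 (SE 0.57) for Upk3a, again with no overlap. Upk3b and Upk3bl, which are related to Upk3a, differed by 1.53 (SE 0.47) and 1.81 (SE 0.58) with grades that overlapped, and probes of these close relatives may share signal.

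Moderate and severe kidneys also differed in where they stood against the less affected kidneys. In Upk1a, Upk1b, Upk2 and Upk3a all 6 severe kidneys lay above all 18 others, which held for 33 of the 27971 genes tested. The summed signal of the 6 genes, on a linear scale with the 75th percentile at 1, was 6.04 to 17.7 in control, 4.55 to 54.2 in mild, 13.2 to 45.3 in moderate and 68.1 to 223.6 in severe kidneys. Mild and moderate kidneys overlapped over most of their range. Severe kidneys started above the highest mild kidney, and severe kidneys 2 and 5 had the largest sums, 223.6 and 117.7. In the same fit over all 24 kidneys, Upk2 differed by 1.13 between moderate and mild kidneys (adjusted p = 0.726), by 3.15 between severe and mild kidneys (adjusted p = 0.00375) and by 3.68 between severe and control kidneys (adjusted p = 0.000174). These comparisons share kidneys with each other.

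**Figure D1:**
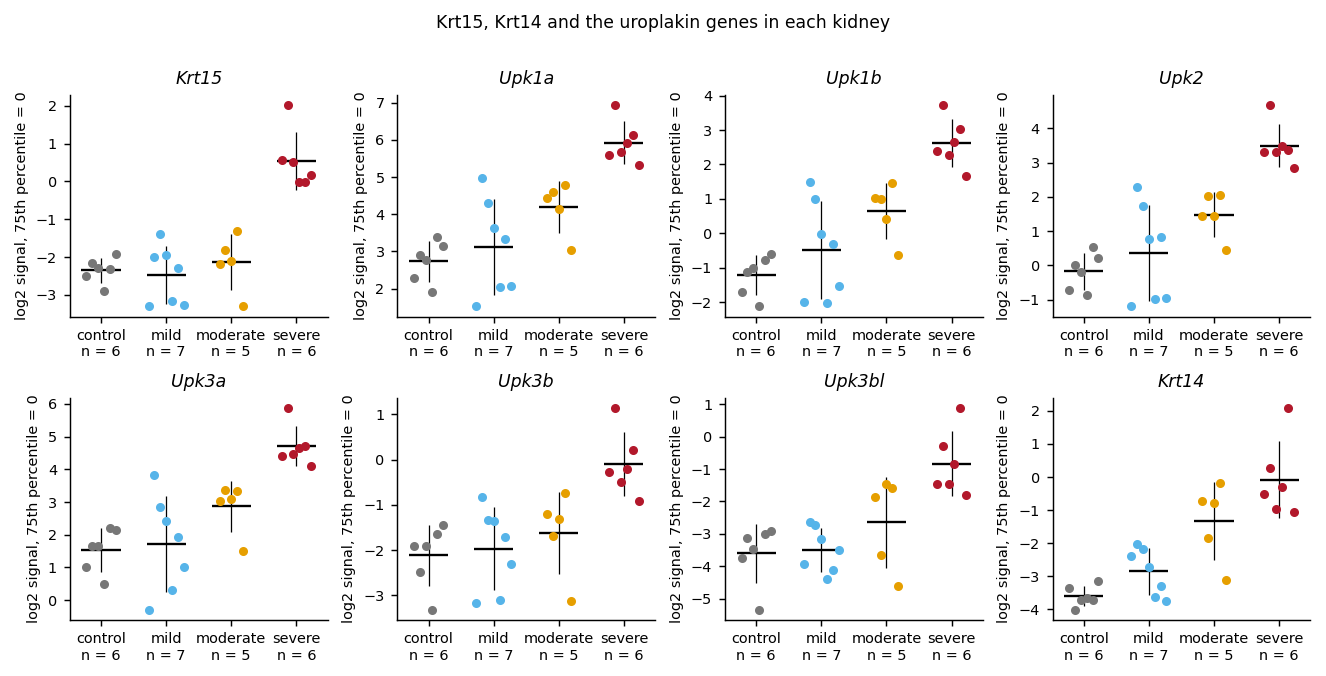
Each point is 1 kidney, the y axis is log2 signal with the array's 75th percentile at 0, and the x axis gives the 4 groups. Horizontal lines are group means and vertical lines SDs. Severe kidneys lie above all other kidneys in Krt15, Upk1a, Upk1b, Upk2 and Upk3a, and overlap with moderate kidneys in Upk3b, Upk3bl and Krt14.

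The sequences upstream of a pair of the non-overlapping uroplakin genes and of Gpat3 are shown because 1 of the urothelial transcription factors described next, Klf5, is of a family that binds GC-rich boxes. Each is the 250 bases before the RefSeq start in GRCm38.p6, 5′ to 3′ along the gene, with every match to GGGNGNGG on either strand in capitals. Matches may overlap.
Upk1a: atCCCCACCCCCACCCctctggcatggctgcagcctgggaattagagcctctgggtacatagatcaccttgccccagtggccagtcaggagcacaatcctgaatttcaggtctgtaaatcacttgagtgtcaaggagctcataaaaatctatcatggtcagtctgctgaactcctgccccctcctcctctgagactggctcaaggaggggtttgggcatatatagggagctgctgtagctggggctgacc
Upk3a: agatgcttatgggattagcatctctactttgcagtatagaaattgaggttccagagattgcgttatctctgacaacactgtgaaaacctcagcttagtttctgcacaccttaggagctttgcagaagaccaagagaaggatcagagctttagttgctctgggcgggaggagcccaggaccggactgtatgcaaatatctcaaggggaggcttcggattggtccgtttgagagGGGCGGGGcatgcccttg
Gpat3: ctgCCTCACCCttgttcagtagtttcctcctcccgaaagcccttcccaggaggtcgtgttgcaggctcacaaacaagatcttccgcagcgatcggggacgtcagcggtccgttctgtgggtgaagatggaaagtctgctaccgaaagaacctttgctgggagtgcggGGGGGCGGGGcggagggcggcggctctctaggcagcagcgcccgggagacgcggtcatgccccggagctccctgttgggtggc
Upk1a lies on the minus strand at chr7:30612735-30612984, Upk3a on the plus strand at chr15:85016891-85017140 and Gpat3 on the plus strand at chr5:100845979-100846228. The motif matched 3 times before Upk1a, with first bases from -248 to -242 relative to the start, once before Upk3a at -18, and 3 times before Gpat3. Of 32851 such windows, 45.9% held at least 1 match, so that a match was common among all genes. The motifs AACCNGTT of the Grhl family (1.8% of windows), TGTTTAC of the Foxa family (3.2%) and AGATAAG of the Gata family (2.7%) had no match in these 3 windows. Of the other uroplakin windows, that of Upk3bl held 2 matches to GGGNGNGG and 1 to AACCNGTT at -9, and that of Upk3b held none of the 4 motifs. GC content was 54.4% before Upk1a, 49.6% before Upk3a and 64.0% before Gpat3, and the median window had 52.4%.

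Other genes of the urothelium followed the uroplakins in direction. Some of them, such as Krt14 and Krt18, had also been reported by the paper as higher in the same severe kidneys than in mild ones. The shared direction of those genes is not independent of that report. All 12 urothelial keratins tested had a higher mean in severe kidneys, with a median difference of 1.06. An unadjusted p under 0.05 was reached by 4 of them, 33.3% against 6.23% over all genes. Without moderate kidney 5 the median was 0.63 and without severe kidney 5 it was 0.70, each with 2 genes at an unadjusted p under 0.05, as also without moderate kidney 2, and 7 genes were under it without moderate kidney 4. Over all genes, 1251 were higher at that p without moderate kidney 5 and 2105 without severe kidney 5. The numbers were 1425 without moderate kidney 2 and 1363 without moderate kidney 4, against 1742 in the reported fit. In that fit the keratins at that p, apart from Krt15, were Krt13, Krt14 and Krt18. Their differences were 1.18 (SE 0.36), 1.25 (SE 0.52) and 1.06 (SE 0.44), with limma adjusted p of 0.277, 0.420 and 0.417. Krt14, a keratin of basal cells, was at -0.74, -1.86, -0.78, -0.17 and -3.12 in moderate kidneys 1 to 5. In severe kidneys it ranged from -1.05 to 2.09 with a median of -0.41. The grades overlapped, severe kidney 5 was far above the others, and the difference without that kidney was 0.82. Krt14 also stood higher in moderate than in mild kidneys, at -1.33 ± 1.17 (n = 5) against -2.86 ± 0.71 (n = 7), while the Krt15 means of these groups were -2.14 and -2.47. Within slide 3, 8 of the 12 keratins were higher and 4 were lower in severe kidneys, with a median of 0.22.

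Of 11 urothelial transcription factors 10 were higher in severe kidneys, and the median difference was 0.63. An unadjusted p under 0.05 was reached by 6 of them, 54.55% against 6.23% over all genes. The paper had reported Foxa1 and Grhl3 as higher in the same severe kidneys than in mild ones, so their high severe values are not independent of that report. Grhl3, which drives terminal differentiation of surface epithelia, was at -0.28, -0.40, -0.71, 0.16 and -2.12 in moderate kidneys. Its severe kidneys lay between 0.40 and 2.33 with a median of 0.91, without overlap, and the difference was 1.79 (SE 0.50, adjusted p = 0.249). Foxa1 differed by 1.37, Klf5 by 1.25, Ehf by 0.89, Gata3 by 0.68 and Elf3 by 0.63, all with adjusted p between 0.305 and 0.459. Trp63, the basal cell regulator, differed by 0.12 and Pparg by 0.43. Without moderate kidney 5 or severe kidney 2 the number at an unadjusted p under 0.05 was 3. Over all genes, 1251 and 1345 were higher at that p in these runs, against 1742 in the reported fit. In slide 3 the list had a median of -0.01, with Gata3, Ehf and Elf3 on the other side of 0.

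The list of barrier and cornified envelope genes gave 17 of 19 tested genes higher in severe kidneys, with a median difference of 0.81. An unadjusted p under 0.05 was reached by 10, 52.6% against 6.23% over all genes. In the list 6 further genes were not tested, 1 for want of a probe and 5 as too dim. Sprr1a, Gjb6 and Gsdmc4 had been reported by the paper as higher in the same severe kidneys than in mild ones. Their high severe values are not independent of that report. Without moderate kidney 5 the median was 0.51 with 7 genes at an unadjusted p under 0.05, and within slide 3 12 genes were higher and 7 lower. Over all genes, 1251 were higher at that p without moderate kidney 5, against 1742 in the reported fit. Pkp1, a plakophilin of desmosomes, was at -2.80, -3.08, -2.47, -1.95 and -4.28 in moderate kidneys and between -1.64 and 0.43, median -0.72, in severe kidneys. The grades did not overlap in Pkp1, where the difference was 2.37 (SE 0.50, adjusted p = 0.115), nor in Sfn and Psca, where it was 1.14 and 1.85. These were 3 of the 19 genes, while over all genes 0.415% did not overlap with severe kidneys above. Sprr1a and Ivl, envelope precursors, differed by 1.90 (SE 0.56) and 1.81 (SE 0.72), the pore-forming protein gene Gsdmc4 by 2.00 (SE 0.53), and the connexin gene Gjb6 by 1.77 (SE 0.63), all with overlap.

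The other genes of lowest p that were higher in severe kidneys belonged to none of these lists. Arhgap40, a GTPase activating protein, was at -2.62, -2.65, -2.50, -2.08 and -3.28 in moderate kidneys and between -1.46 and 0.13, median -0.88, in severe kidneys. Cntnap2, an adhesion protein of the neurexin family, was above background on 4 of 5 moderate and 6 of 6 severe arrays and differed by 1.64 (SE 0.30). Fam25c differed by 1.69 (SE 0.32) and Acer2, a ceramidase, by 1.40 (SE 0.27). The grades did not overlap in these 4 genes, all 4 had an adjusted p of 0.0784, and all 6 severe kidneys also lay above the 18 other kidneys in Arhgap40, Cntnap2 and Fam25c. Hopx, a homeodomain protein of differentiating epithelia, differed by 1.05 (SE 0.21, adjusted p = 0.0833) without overlap. The scaffold gene Ppfibp2 (0.80), the ubiquitin-like protease gene Usp18 (0.81), Capsl (0.95) and Catsperd (0.60) did not overlap either, but another Ppfibp2 probe gave -0.55. Chst5, a carbohydrate sulfotransferase, and Mrgprb2, a receptor of mast cells, differed by 2.39 and 2.32. Chst5 was above background on 1 of 5 moderate and 4 of 6 severe arrays and Mrgprb2 on 1 of 5 and 5 of 6, so that their differences rest on dim spots.

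Gpat3, which encodes a glycerol-3-phosphate acyltransferase of the first step in triglyceride synthesis, fell in severe kidneys. Its log2 signal was 3.94, 2.48, 2.75, 4.09 and 3.07 in moderate kidneys 1 to 5. In severe kidneys it was 1.39 at the lowest, 1.80 at the median and 2.34 at the highest. No severe kidney reached the lowest moderate kidney, and moderate kidneys 1 and 4 were the highest. The log2 signal fell by 1.46 (SE 0.23), which made the moderate level 2.75-fold higher with an interval of 1.97- to 3.84-fold (limma adjusted p = 0.0359). Control kidneys had a mean of 2.52 ± 0.10 (n = 6), mild kidneys 2.69 ± 0.25 (n = 7), moderate kidneys 3.27 ± 0.72 (n = 5) and severe kidneys 1.81 ± 0.33 (n = 6), and all 18 others lay above the highest severe kidney. Severe minus control was -0.71 (adjusted p = 0.0342) and moderate minus mild was 0.58 (adjusted p = 0.618). Within slides 1, 2 and 3 the difference was -2.62, -1.03 and -0.76. The adjusted p passed 0.05 in 9 of the 24 runs that left out 1 kidney (control 5, mild 2, 3 and 6, moderate 2 and 3, and severe 4, 5 and 6) and reached 0.204 in the others. It was 0.0928 with the slide as a block, 0.179 with scaling by the array median, 0.252 in the 18 mgb-/- kidneys alone and 0.560 in the 11 severe and moderate kidneys alone.

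Of 23 genes of glycerolipid synthesis and lipid droplets, Gpat3 among them, 21 were lower in severe kidneys, and the median difference was -0.42. An unadjusted p under 0.05 was reached by 5 of these, counting Gpat3, which is 21.7% against 4.13% over all genes. Without moderate kidney 1 or 4 the number at an unadjusted p under 0.05 was 2. Without moderate kidney 3 or severe kidney 6 it was 8. Over all genes, 1037 and 1312 were lower at that p without moderate kidneys 1 and 4, against 1156 in the reported fit. Without moderate kidney 3 and severe kidney 6 the numbers over all genes were 1970 and 2047. Plin5, a protein of lipid droplets that touch mitochondria, was at 3.17, 1.81, 2.12, 2.88 and 2.11 in moderate kidneys. In severe kidneys it was 0.16 at the lowest, 1.61 at the median and 2.00 at the highest. The grades overlapped, and the difference was -1.02 (SE 0.31, adjusted p = 0.283). Dgat1, of the last step of triglyceride synthesis, differed by -0.90, but severe kidney 4 was at -1.86 while the lowest of the other severe kidneys was at 1.20, and without it the difference was -0.34. Gpat2 and Gpam, isoenzymes of Gpat3, differed by -0.50 (SE 0.23) and -0.37 (SE 0.17), and Gpat4, another, differed by 0.06. Without severe kidney 5 the Gpam difference was -0.18. The 8 adipocyte genes tested were also all lower in severe kidneys, with a median of -2.06, and the part of fat tissue in this list was not tested.

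All 24 proximal tubule genes had a lower mean in severe kidneys, with a median difference of -0.35. An unadjusted p under 0.05 was reached by 5 of them, 20.8% against 4.13% over all genes. The shared direction rested on severe kidney 5. The summed signal of the list was 2925, 3783, 2825, 3284 and 4683 in moderate kidneys 1 to 5 and 2827, 2671, 3429, 3289, 1141 and 3785 in severe kidneys 1 to 6. Without severe kidney 5 the genes divided into 12 higher and 12 lower, with a median of -0.03 and 4 lower at an unadjusted p under 0.05. Over all genes, 1075 were lower at that p without this kidney, against 1156 in the reported fit. Within slide 3, 20 of the 24 genes were higher in severe kidneys.

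A few proximal tubule carriers kept their difference without severe kidney 5. Slc5a12, a lactate carrier of the brush border, was at 7.02, 6.36, 6.53, 7.36 and 7.41 in moderate kidneys and between 5.22 and 6.86, median 5.89, in severe kidneys. The moderate mean was 2.01-fold higher with an interval of 1.44- to 2.80-fold (adjusted p = 0.138), and the log2 difference was -0.86 without severe kidney 5. Slc7a7, a basolateral amino acid exchanger subunit, differed by -0.92 (SE 0.23, adjusted p = 0.182), and by -0.80 without that kidney. Within slide 3 the differences of Slc5a12 and Slc7a7 were -0.22 and -0.04. Slc6a19, the apical carrier of neutral amino acids, differed by -2.06 (SE 0.58), of which the low value of -1.73 in severe kidney 4 made part, and without kidney 4 the difference was -1.33. Slc4a4 and Slc3a1 differed by -0.64 and -0.44, but by -0.41 and -0.20 without severe kidney 5, and were above 0 within slide 3. Lgmn, a lysosomal protease, was at 7.81, 7.74, 7.39, 7.89 and 8.01 in moderate kidneys and between 6.68 and 7.59 in severe kidneys. It differed by -0.66 (SE 0.15, adjusted p = 0.127).

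Fatty acid oxidation genes were lower in 17 of 18 cases, with a median difference of -0.38. An unadjusted p under 0.05 was reached by 4 of them, 22.2% against 4.13% over all genes. Ehhadh, the peroxisomal bifunctional enzyme, differed by -0.90 (SE 0.32), Ppara, the nuclear receptor of this pathway, by -0.51 (SE 0.22), Cpt2 by -0.43 and Acot2 by -0.41. Without severe kidney 5 the list had 13 of 18 genes lower and a median of -0.15. The number at an unadjusted p under 0.05 ran from 1 without moderate kidney 4 to 8 without moderate kidney 3. Over all genes, 1312 and 1970 were lower at that p without moderate kidneys 4 and 3, against 1156 in the reported fit. All 4 named genes were higher in severe kidneys within slide 3.

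**Figure D2:**
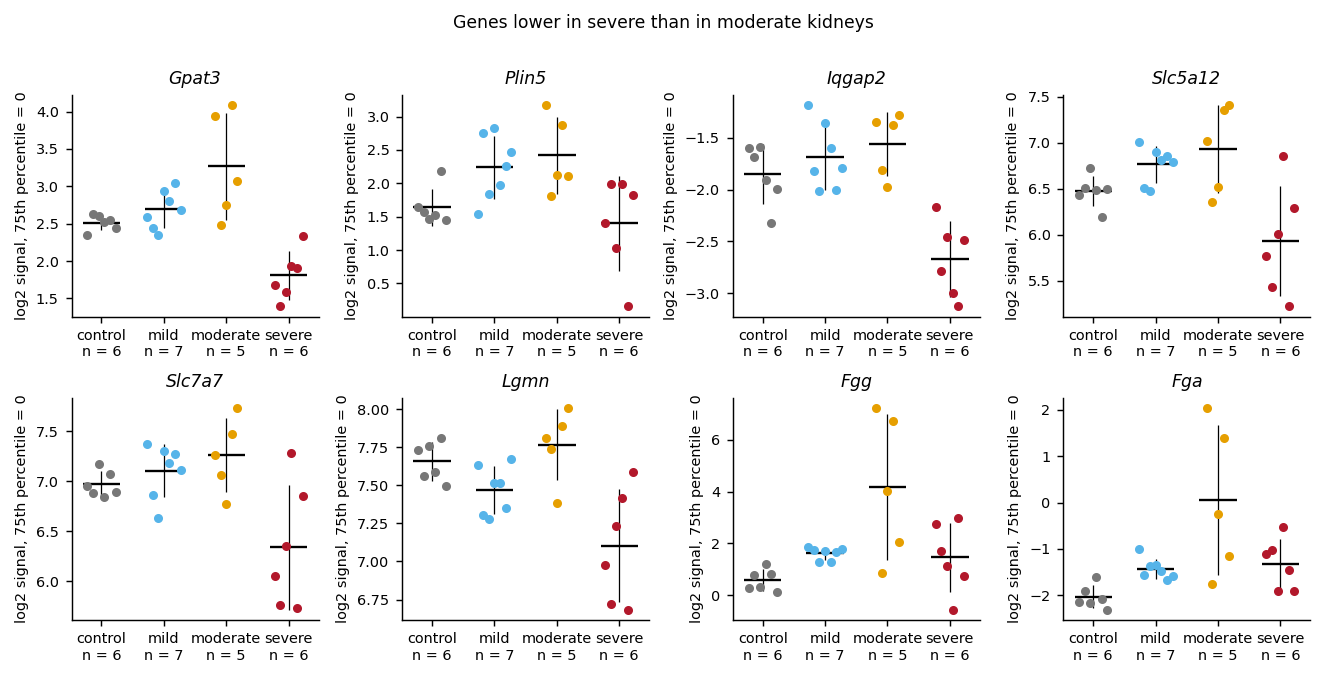
Each point is 1 kidney, the y axis is log2 signal with the array's 75th percentile at 0, and lines give group means and SDs. Gpat3 is lower in every severe kidney than in any other kidney, severe and moderate kidneys do not overlap in Iqgap2 and overlap in Plin5, Slc5a12, Slc7a7 and Lgmn, and the moderate kidneys spread widely in Fgg and Fga.

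Further genes of lowest p that were lower in severe kidneys had smaller differences. Iqgap2, a scaffold protein of the cytoskeleton, was at -1.35, -1.81, -1.97, -1.38 and -1.28 in moderate kidneys and between -3.13 and -2.16, median -2.64, in severe kidneys. The grades did not overlap and the difference was -1.11 (SE 0.19, adjusted p = 0.0626). Snap91, a clathrin assembly protein, differed by -0.83 (SE 0.17, adjusted p = 0.0833), also without overlap. Cd302, a C-type lectin receptor, differed by -1.16, Cadm3, an adhesion protein, by -1.45, Fgf18 by -0.97, Flacc1 by -0.89, Bend7 by -0.68 and Hacd1, of fatty acid elongation, by -0.51, with adjusted p between 0.127 and 0.138. Cyp2d12 and Cyp2d22 differed by -1.03 and -1.09, had no value in severe kidney 4, and belong to a family of similar sequences whose probes may not tell members apart. Cadm3 was above background on 3 of 6 severe arrays.

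The injury markers Lcn2, Havcr1 and Timp1 spread more within each grade than between the grades. Lcn2, a secreted protein of injured distal tubules, was at 6.59, -1.05, 4.29, 5.30 and -1.16 in moderate kidneys 1 to 5 and between -0.27 and 5.48, median 1.75, in severe kidneys. Havcr1, the injury molecule of the proximal tubule, was at 1.81, -3.08, -0.05, 1.93 and -2.60 in moderate kidneys and between -3.48 and 4.16, median -1.41, in severe kidneys. Timp1, an inhibitor of matrix proteases, was at 2.07, -1.88, 0.70, 2.83 and -3.52 and between -2.70 and 5.17, median -1.16. Moderate kidneys 1, 3 and 4 were high and 2 and 5 low in all 3 genes, and severe kidney 5 was the highest severe kidney in each. The differences of Lcn2, Havcr1 and Timp1 were -0.72 (SE 1.12), -0.52 (SE 1.02) and -0.47 (SE 1.10), none past an unadjusted p of 0.05 in limma. The 95% interval for Lcn2 ran from -3.05 to 1.60 on the log2 scale, which leaves room for a large difference in either direction. Moderate kidneys 2 and 5 shared slide 2, and within slides 1, 2 and 3 the Lcn2 difference was -4.16, 3.71 and -2.48.

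Over the 18 tubular injury genes 9 were higher and 9 lower, and S100a6, a calcium-binding protein, was the only one with an unadjusted p under 0.05 (difference 1.10, adjusted p = 0.442). The even division hung on single kidneys, with 14 higher and 4 lower without moderate kidney 1, 4 higher and 14 lower without either moderate kidney 5 or severe kidney 5, and all 18 higher within slide 2. Of 16 acute phase genes 15 were lower in severe kidneys, with a median difference of -1.10. An unadjusted p under 0.05 was reached by 3 of them, 18.75% against 4.13% over all genes. The median was -0.59 without moderate kidney 1 and -0.63 without moderate kidney 4, with 2 genes at an unadjusted p under 0.05 in each case. Under it were 7 genes without moderate kidney 2 or 5 and 6 without severe kidney 5. Over all genes, 1037, 1312, 956 and 614 were lower at that p without moderate kidneys 1, 4, 2 and 5. Without severe kidney 5 the number over all genes was 1075, against 1156 in the reported fit. Fgg, the fibrinogen gamma chain, was at 7.23, 0.84, 4.03, 6.73 and 2.06 in moderate kidneys and between -0.56 and 2.97, median 1.42, in severe kidneys. Kidneys 1 and 4 were far above the others. The difference was -2.72 (SE 0.83, adjusted p = 0.283), Fga differed by -1.38 (SE 0.46) and Saa1 by -1.34 (SE 0.52). Within slide 2, 15 of the 16 acute phase genes were higher in severe kidneys, against 15 lower within slides 1 and 3. The paper had picked Fgg and other members of this list, with Havcr1 and Timp1, as higher in mgb-/- kidneys of this series with high Lcn2. Most of those kidneys were moderate, so a lower severe level of these genes is not independent of that choice.

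**Figure D3:**
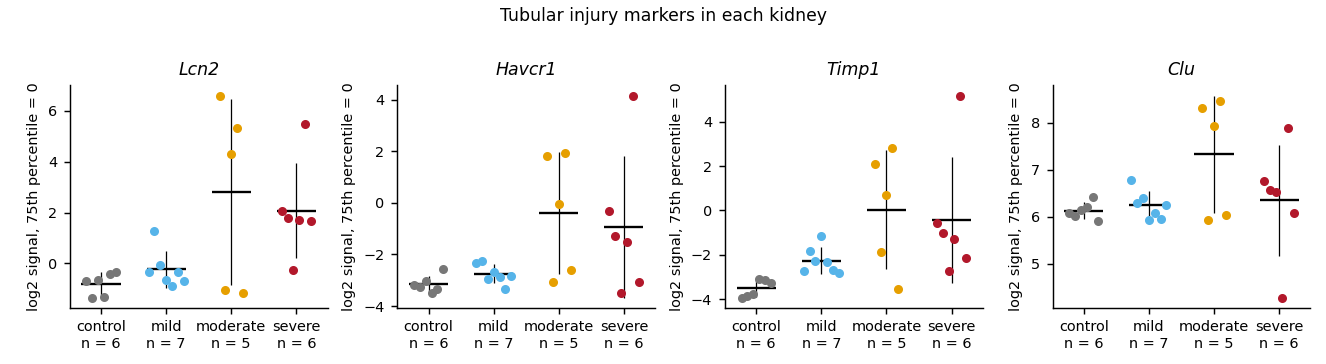
Each point is 1 kidney, the y axis is log2 signal with the array's 75th percentile at 0, and lines give group means and SDs. In Lcn2, Havcr1, Timp1 and Clu, moderate kidneys 1, 3 and 4 lie above moderate kidneys 2 and 5, and severe kidney 5 is the highest severe kidney in each panel.

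The remaining lists of kidney cells had medians close to that of all genes. Collecting duct principal cell genes were higher in 9 of 10 cases with a median of 0.25, and of 0.10 without moderate kidney 2. Among them Fxyd4, a regulator of the sodium pump, was at 3.95, 3.98, 4.84, 4.82 and 3.83 in moderate kidneys and between 4.72 and 5.27 in severe kidneys, a difference of 0.78 (SE 0.20, adjusted p = 0.189), and control kidneys were at 4.85 ± 0.30 (n = 6). Thick limb and distal tubule genes had 13 of 17 higher and a median of 0.19, with Cldn19 (0.39) higher and the calcium channel gene Trpv5 (-0.81) lower at an unadjusted p under 0.05. Intercalated cell genes had a median of 0.11, with Slc4a1 (0.65), which erythrocytes also express, at an unadjusted p under 0.05. Podocyte genes had a median of -0.15, with Podxl (-0.63) lower and Plce1 (0.82) higher, and endothelial genes 0.10, with Egfl7 (0.28) higher. These single genes made 5.9% (thick limb and distal tubule) to 10% (principal cells) of a list higher, against 6.23% over all genes. Lower were 5.9% of thick limb and distal tubule genes and 8.3% of podocyte genes, against 4.13% over all genes. The shares were thus near those over all genes. Smooth muscle (0.11), fibroblast and matrix (0.13), leukocyte (-0.04) and erythrocyte (0.15) lists had no further gene under an unadjusted p of 0.05 apart from Slc4a1 in the last.

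Immediate early genes, which answer within minutes to many stimuli and to tissue handling, were higher in 19 of 22 cases with a median of 0.39. Arc (1.07, SE 0.34), Nr4a2 (1.12, SE 0.36), Fosb (1.32, SE 0.44) and Fosl2 (0.67, SE 0.31) had an unadjusted p under 0.05 and adjusted p between 0.302 and 0.471. They made 18.2% of the list, against 6.23% over all genes. Without severe kidney 5, moderate kidney 5 or severe kidney 3 the median of the immediate early genes was 0.19, 0.23 or 0.24, and within slide 1 8 of them were higher and 14 lower. All 18 cell cycle genes tested had a lower mean in severe kidneys with a median of -0.23 and none at an unadjusted p under 0.05, but without severe kidney 4 the genes divided into 11 higher and 7 lower and without moderate kidney 4 into 9 and 9. Of 24 genes of retinoic acid metabolism and signalling, 13 were higher and 11 lower. Lrat, which esterifies retinol, was at -2.96, -4.10, -3.96, -2.95 and -3.35 in moderate kidneys and between -5.97 and -3.61, median -4.85, in severe kidneys. It differed by -1.27 (SE 0.35, adjusted p = 0.234), while Crabp2, a retinoic acid binding protein, differed by 0.85 (SE 0.27), and the receptor genes Rarb and Rarg by 0.49 and 0.35. Among 16 growth factor and receptor genes of epithelia, Tgfa differed by 0.49 (SE 0.13), Egfr by -0.24 (SE 0.09) and Btc, a ligand of Egfr, by -1.38, and by -0.71 without severe kidney 4, where Btc was not above background.

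**Figure D4:**
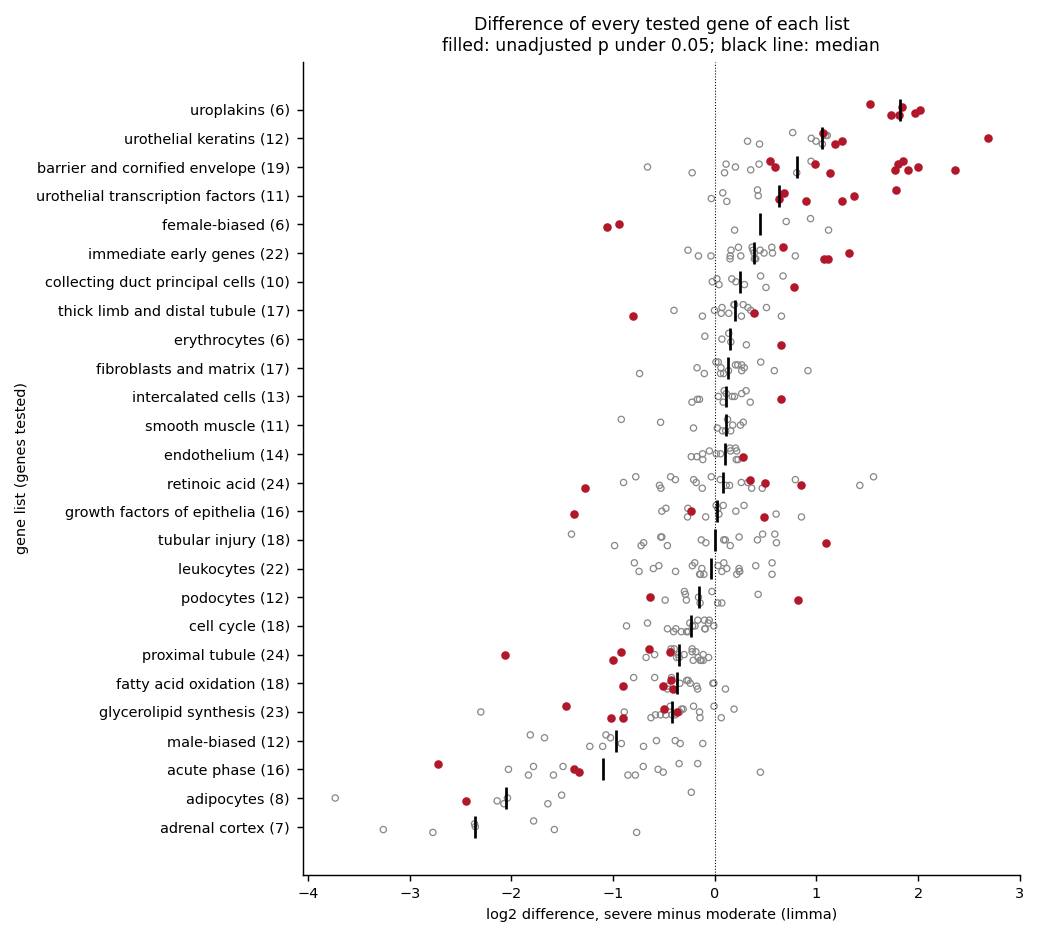
Each point is 1 gene of a list, the x axis is the limma log2 difference of severe minus moderate kidneys, and rows are lists in order of their medians. Filled points have an unadjusted p under 0.05 and black lines are medians, from 1.82 for uroplakins to -2.35 for adrenal cortex, and nearly all lists of other kidney cells lie close to 0.

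Markers of tissue outside the kidney also differed between kidneys. All 7 adrenal cortex genes tested were lower in severe kidneys, with a median difference of -2.35 and none at an unadjusted p under 0.05, and without moderate kidney 1 the median was -0.62. The summed signal was 243.2 in moderate kidney 1 and 4.93 in moderate kidney 3, against 0.635 to 0.730 in the other moderate and 0.577 to 1.28 in the severe kidneys. Cyp11b1, the last enzyme of corticosterone synthesis, was at 4.86 and -1.08 in moderate kidneys 1 and 3 and at or below -4.44 in the other 9 kidneys. Cyp11a1 was not well above background on any severe array and was so on 2 of 5 moderate arrays, and its moderate mean was at least 2.37-fold higher (adjusted p = 0.570). That bound rested on moderate kidney 1, without which the measured log2 difference of Cyp11a1 was -0.84. The 8 adipocyte genes were all lower, with a median of -2.06 (-1.17 without severe kidney 6 and -1.22 without severe kidney 3), and their sum ran from 17.9 to 361.4 in moderate and from 22.2 to 226.2 in severe kidneys. Retn (-2.44) had an unadjusted p under 0.05 and Ucp1, of brown fat, differed by -3.73 (SE 2.41). The part of this tissue in the other differences was not tested beyond the runs without moderate kidney 1.

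Genes with sex-biased expression in the mouse kidney, such as Cyp4a12a, varied widely within both grades. The male- and female-biased lists were those of the paper, which named these genes as differing between mgb-/- and control kidneys of this series. The 12 male-biased genes had a median difference of -0.97 with none at an unadjusted p under 0.05, and a summed signal of 10.9 to 394.3 in moderate and 6.92 to 393.8 in severe kidneys. The highest sums were in moderate kidneys 2 and 5 and severe kidney 6. Leaving out 1 of the 11 kidneys moved the median between -1.66, without severe kidney 6, and -0.24, without moderate kidney 2. Of 6 female-biased genes 4 were higher, and Bhmt (-1.06) and Gsta2 (-0.94) were lower at an unadjusted p under 0.05.

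Severe kidneys differed among themselves as well. Severe kidney 5 had the largest sums for tubular injury (1074), leukocytes (188.2), fibroblasts and matrix (724.6) and cell cycle genes (80.5) and the smallest for proximal tubule (1141) and fatty acid oxidation (315.8) among the 11 kidneys. Severe kidney 2 had the largest uroplakin sum but a tubular injury sum of 427.7, and severe kidney 6 had the smallest injury sum of the severe group, 200.1. Moderate kidney 5 had the smallest sums of the 11 kidneys for tubular injury (131.7), urothelial keratins (38.1) and uroplakins (13.2). The difference in Krt15 was 2.79 without severe kidney 5 and 2.39 without moderate kidney 5.

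**Figure D5:**
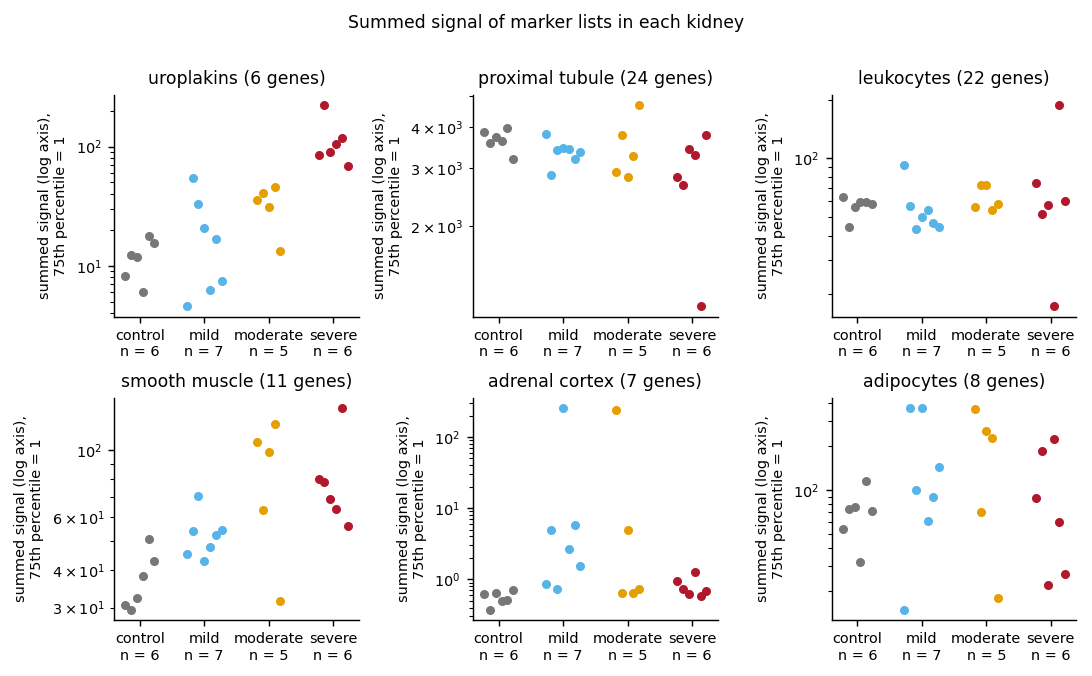
Each point is 1 kidney, and the y axis, a log axis, is the summed signal of a marker list with the array's 75th percentile at 1. Uroplakin sums of the severe kidneys (68.1 to 223.6) lie above all others. Proximal tubule is low in severe kidney 5 (1141), and leukocytes are high there (188.2) and low in severe kidney 4 (17.3). Adrenal cortex is high in moderate kidney 1 (243.2) and reaches 255 among the mild kidneys.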

How the data were processed

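Total RNA of whole, snap-frozen kidneys was labelled with Cy3 and hybridised to Agilent 8x60K mouse arrays, 1 array per kidney. The authors deposited, per array, the intensity values of each spot from the scanner, processed with Agilent Feature Extraction 10.10 per the labels (background-subtracted signal), and a table of normalized intensity values. Control spots and spots with outlier flags were left out, log2 intensities of a probe's spots were averaged, and each array's 75th percentile was subtracted. Probes well above background on at least 5 of the 24 arrays were kept (38848 of 55681). The brightest probe stood for a gene, named through RefSeq (26762 probes). Of 38 other kept probes of named genes, 33 had the sign of the one used. Those of the other sign belonged to Cdk1, Csf1r, Kdr, Ppfibp2 and Synm.

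A 4-group model over 24 kidneys was fitted with limma 3.58.1 (R 4.3.3), and severe was compared with moderate. Called genes had an adjusted p under 0.05 (Benjamini-Hochberg) and at least a 2-fold difference. The steps were tested on simulated data. Named genes were those called, the 12 of lowest p with a symbol in each direction, in each of 26 lists the members with an unadjusted p under 0.05 or, where these were fewer than 3, the 3 of lowest p, and Lcn2, Havcr1 and Timp1. Genes named besides these (Trp63, Pparg, Gpat4) were chosen after their values were seen. A member of the podocyte list that the rule would name is not reported here. The comparison and the lists were chosen with earlier results of these data known. No slide, replicate or kidney was left out of the reported fit. Alternatives were other scalings, background corrections, filters, probe summaries, blocks, subsets of kidneys and each kidney left out in turn. The number of arrays limits precision.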

Additional observations from a re-analysis of the deposited data

Results flagged for a closer look

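Of 296 sets of log2 signals tested (named genes and list means, within each of the moderate and severe groups), 35 had 1 kidney whose gap to its nearest neighbour was too large for the group's range by Dixon's criterion. Chance alone flags about 1 in 20 such sets, and the kidneys below are values with no weighing of a cause. Moderate kidney 5 was the lowest of its group, and apart, in Acer2 (-3.32), Alas2 (1.72), Lum (-1.23), Lyz2 (-2.71), Psca (-1.33), Upk3a (1.51), the mean of fibroblasts and matrix (-0.30) and the mean of uroplakins (-0.56). Moderate kidney 2 was the highest of its group, and apart, in Fosb (-0.81). Severe kidney 6 was the lowest of its group, and apart, in Abcc3 (0.77). Severe kidney 4 was the lowest of its group, and apart, in Btc (-6.63), Dgat1 (-1.86), Myh11 (-5.48), Nusap1 (-6.37) and Slc6a19 (-1.73). Severe kidney 5 was the highest of its group, and apart, in Cd74 (5.04), Lyz2 (1.71), Pdgfra (1.79), Timp1 (5.17), the mean of fibroblasts and matrix (2.91), the mean of leukocytes (0.74) and the mean of tubular injury (3.52). Severe kidney 6 was the highest of its group, and apart, in Cyp4a12a (3.28) and Cyp4a12b (3.95). Severe kidney 2 was the highest of its group, and apart, in Fam25c (5.47), Krt15 (2.03), Upk2 (4.69) and Upk3a (5.87). Severe kidney 5 was the lowest of its group, and apart, in Gpam (-3.14), Ppara (2.99), Slc3a1 (3.88), Slc4a1 (0.97), the mean of fatty acid oxidation (3.16) and the mean of proximal tubule (4.52). Severe kidney 4 was the highest of its group, and apart, in Gsta2 (4.93).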

How the results depend on the processing

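Against 1 gene higher and 1 lower in severe kidneys, the called counts (limma, adjusted p) were 0 and 0 with scaling by the array median, with the slide as a block, within each of slides 1, 2 and 3, with the 11 severe and moderate kidneys alone, with the 18 mgb-/- kidneys alone, and with moderate kidney 1 and severe kidney 4 both left out, an alternative chosen after seeing the data. At an unadjusted p under 0.05 these gave 1354 and 919, 1403 and 915, 2198 and 2076, 1652 and 2830, 378 and 305, 1065 and 479, 1536 and 792, and 1299 and 1606 genes. The counts were 6 and 1 with normexp, 11 and 2 with the authors' normalized table, 2 and 1 without a filter on dim probes, 1 and 2 for probes above background on all 24 arrays, 8 and 18 with array quality weights, and 10 and 3 at an adjusted p under 0.1. Leaving out 1 kidney gave 0 to 83 higher and 0 to 17 lower, with 43 and 17 without moderate kidney 3 and 83 and 15 without severe kidney 6. No gene was called without moderate kidney 1, moderate kidney 5 or severe kidney 3. Moderate and severe kidneys of the same replicate number did not deviate together (correlations of deviations -0.11, -0.19, -0.39, -0.12 and -0.55). Such correlations over all genes cannot tell whether a number marks kidneys of 1 mouse. With a replicate block the counts were 6 and 1. Of 122 named genes, 66 kept their direction in every setting. The others changed sign as follows, and the cause was not tested. Slide 1 held 1 severe kidney and slide 3 held 1 moderate kidney, so that differences within these slides rest on that kidney. Within slide 1 the log2 differences were Egfl7 -0.12, Smtn -0.17, Csf1r -0.0276, Alas2 -0.33 and Hba-a1 -0.0973. Within slide 2 they were Clu 1.22, Spp1 1.21, Fgg 0.60, Saa1 0.39, Trpv5 0.14, Slc4a1 -0.13, Rhcg -0.0134, Myh11 0.65, Lum 0.44, Lyz2 1.07, Nusap1 0.53, Cdk1 0.62, Ccnb2 0.51, Egfr 0.0066, Hba-a1 -0.0057, Cyp11a1 0.32, Lcn2 3.71, Havcr1 3.18 and Timp1 3.94. Within slide 3 they were Cyp2d12 2e-04, Cyp2d22 0.0369, Elf3 -0.49, Gata3 -0.15, Ehf -0.48, Dsg2 -0.25, Ppl -0.0458, Gpam 0.0375, Gpat2 0.25, Cpt2 0.12, Ehhadh 0.45, Ppara 0.0778, Acot2 0.22, Slc3a1 0.17, Slc4a4 0.18, Slc12a1 -0.0309, Aqp2 -0.24, Elf5 -0.82, Aqp6 -0.22, Podxl 0.059, Tek 0.21, Kdr 0.0476, Pdgfra -0.33, Tnc -2.07, Cd74 -0.38, Ccnb2 0.52, Fosl2 -0.0207, Rarb -0.0301, Rarg -0.0125, Timd2 0.83, Cyp4a12b 2.33, Cyp4a12a 2.45, Bhmt 0.14 and Abcc3 -0.55. With both kidneys left out they were Myh11 0.21, Nusap1 0.0337, Hba-a1 -0.063, Lcn2 0.30, Havcr1 0.15 and Timp1 0.22. Csf1r was -0.37 with normexp and -0.41 with the stricter background filter, averaging probes gave Smtn -0.003, Csf1r -0.37 and Cdk1 0.10, and the authors' table gave Kdr 0.18. The ranges over left-out kidneys that crossed 0 were Lcn2 -1.71 to 0.23, Havcr1 -1.54 to 0.0612, Timp1 -1.59 to 0.23, Nusap1 -1.27 to 0.0373 and Hba-a1 -0.0214 to 0.30. Medians of 18 of 26 lists moved beyond their spread within a single slide, where a grade held as few as 1 kidney. Signal near background limits dim genes such as Chst5, Mrgprb2 and Cyp11a1.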
